A study of Homo sapiens with 9 samples.

Results

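In A549, an established cell line from a human lung adenocarcinoma, prostaglandin synthesis was examined through 10 genes that cover release of the substrate, both cyclooxygenases, the prostaglandin E synthases, the inactivating enzymes and a pair of prostaglandin E2 receptors. They are 10 of the 51796 genes in the count table, matched by symbol to Ensembl identifiers. The set was chosen by the PTGS2 counts, which were high in the control and low in both knockdowns, so the values of PTGS2 against the control are given as a description without a test. The other members were listed for their place in the pathway, but with earlier results of these data known. Their p-values come from the fit over all tested genes and are not those of a choice made blind to the data.

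Arachidonic acid is freed from membrane phospholipids by phospholipases such as the cytosolic enzyme PLA2G4A. The cyclooxygenases PTGS1, usually constitutive, and PTGS2, which is induced by cytokines, growth factors and stress, turn it into prostaglandin H2, and terminal synthases make prostaglandin E2 and other prostanoids from that intermediate. Prostaglandin E2 signals through receptors of the EP class and is inactivated by HPGD, the 15-hydroxyprostaglandin dehydrogenase, and then by a reductase such as PTGR1. PTGS2 and prostaglandin E2 are known in lung adenocarcinoma for links to growth, invasion and immune escape.

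The 9 RNA-seq libraries came from total RNA depleted of ribosomal RNA and fell into 3 groups of 3 biological replicates. The groups carried a stable short hairpin RNA against PRMT5, against MEP50 or, as the control, against GFP. All 3 groups were grown in RPMI with fetal bovine serum under puromycin selection, and the control therefore carries a hairpin and a resistance marker too. PRMT5 is the main arginine methyltransferase for symmetric dimethylation, and WDR77 is the gene of MEP50, the WD-repeat protein that works with it. The labels give 1 hairpin group per target and do not say whether replicates were separate cell lines, so the p-values measure the spread between these cultures, and loss of a target and other effects of its hairpin cannot be told apart.

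The libraries held 20806181 to 31586128 reads on genes, deep enough to test 14582 genes. PRMT5 was at 68.9 ± 1.33 CPM in the PRMT5 knockdown, against 208.5 ± 3.17 CPM in the control, and WDR77 was at 12.5 ± 1.58 CPM in the MEP50 knockdown, against 39.4 ± 0.225 CPM in the control (CPM, counts per 1000000 reads on genes after TMM scaling, SD, n = 3). The keratins KRT8 and KRT18 and the cadherin CDH1 were present in all groups. Of 12 lung epithelial markers 6 stayed below 1 CPM in every group, namely EPCAM, KRT19, NKX2-1, SFTPB, SFTPC and NAPSA. The epithelial markers thus went both ways. The summed level of the 12 markers was 4407 to 4572 CPM in the PRMT5 knockdown and 4085 to 4367 CPM in MEP50 knockdown libraries, against 6458 to 6691 CPM in the control. The lower sum came from KRT8, which averaged 2087, 1932 and 3223 CPM in PRMT5 knockdown, MEP50 knockdown and control libraries, and KRT18, at 2100, 2006 and 3195 CPM. In the same order LPCAT1 averaged 174, 145 and 75.8 CPM, ABCA3 79.7, 70.3 and 36.6 CPM, and CDH1 34.9, 75.6 and 40.1 CPM, so the markers did not move as a set. Of the 6 matched monocyte and macrophage markers, summing to 23.8 to 27.2 CPM in the PRMT5 knockdown, 26.0 to 29.8 CPM in the MEP50 knockdown and 15.7 to 17.8 CPM in the control, nearly all reads lay on CD68, with 3 reads on PTPRC and 0 on AIF1. The 7 fibroblast markers summed to 221 to 233 CPM, 273 to 291 CPM and 108 to 110 CPM in the same order of groups, mostly from COL3A1, with 1 read on DCN. Of 5 mast cell markers 4 had no read, and the 4 matched endothelial markers summed to at most 0.27 CPM. The part of these shifts in the results was not tested.

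In both knockdowns the transcripts of PTGS2 and PLA2G4A were lower, and those of HPGD higher, than in the control. PTGS2 stood at 3.15% of its control level in the PRMT5 knockdown and at 12.5% in the MEP50 knockdown. PLA2G4A was 4.16-fold and 2.11-fold lower, and HPGD was 4.11-fold and 4.38-fold higher, than in the control. The abundant synthases PTGES2 and PTGES3 differed from the control by at most 1.19-fold, while of the weakly expressed receptor genes PTGER2 was higher in the MEP50 knockdown and PTGER4 was highest in the PRMT5 knockdown. In bulk RNA, fewer cells that express a gene and less RNA per cell cannot be told apart.

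The promoters of the 3 members with the widest differences are shown first, as RefSeq gives them for GRCh38.p14, each with 250 bases before and 50 bases after the start of the gene and written 5′ to 3′ on the strand of the gene. Capitals mark the letters TATAAA (the TATA box), CGTCA (the core of the cyclic AMP response element), GCAAT (the core of C/EBP sites) and GGGCGG (the GC box), each searched on both strands. The PTGS2 promoter is chr1:186680374-186680673 (minus strand), that of PLA2G4A is chr1:186828699-186828998 (plus strand), and that of HPGD is chr4:174522439-174522738 (minus strand).
PTGS2: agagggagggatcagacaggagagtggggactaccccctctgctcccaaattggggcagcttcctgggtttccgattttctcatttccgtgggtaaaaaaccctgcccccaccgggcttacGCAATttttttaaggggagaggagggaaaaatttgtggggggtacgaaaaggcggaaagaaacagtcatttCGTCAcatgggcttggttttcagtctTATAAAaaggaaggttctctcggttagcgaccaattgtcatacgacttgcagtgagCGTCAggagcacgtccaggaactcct
PLA2G4A: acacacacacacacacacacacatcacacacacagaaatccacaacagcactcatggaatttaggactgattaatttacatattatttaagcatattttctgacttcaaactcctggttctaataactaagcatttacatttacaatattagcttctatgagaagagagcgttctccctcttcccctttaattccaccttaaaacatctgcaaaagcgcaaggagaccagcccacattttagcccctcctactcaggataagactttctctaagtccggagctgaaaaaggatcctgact
HPGD: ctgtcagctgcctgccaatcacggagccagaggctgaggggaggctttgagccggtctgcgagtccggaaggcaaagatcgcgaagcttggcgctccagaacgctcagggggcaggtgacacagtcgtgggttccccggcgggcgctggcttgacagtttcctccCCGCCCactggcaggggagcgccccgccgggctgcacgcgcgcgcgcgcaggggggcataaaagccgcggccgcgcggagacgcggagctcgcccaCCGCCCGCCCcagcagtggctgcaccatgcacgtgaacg
The PTGS2 window held 1 TATAAA, beginning 32 bases before the start, and 1 GCAAT. It also held 2 CGTCA, beginning 58 bases before and 24 bases after the start. The PLA2G4A window held none of the 4 patterns, and that of HPGD held 3 GGGCGG on the opposite strand, of which 2 overlap. Of 35116 RefSeq promoters of this length, 11.5% held TATAAA, 24.6% held CGTCA, 24.4% held GCAAT and 45.0% held GGGCGG, so each pattern is common. RefSeq gives another start for HPGD, whose window is not shown. That window held 1 CGTCA and none of the other patterns marked here. These are matches of letters and not measured binding.

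PLA2G4A (ENSG00000116711), the cytosolic phospholipase that prefers arachidonate, was at 31.8, 30.9 and 27.5 CPM in PRMT5 knockdown libraries 1, 2 and 3, at 55.6, 61.2 and 60.9 CPM in MEP50 knockdown libraries, and at 122, 128 and 125 CPM in the control libraries. The 3 groups did not overlap, and the order was the same as for PTGS2. Its log2 fold change was -2.06 ± 0.0505 (SE) in the PRMT5 knockdown, with an adjusted p of 9.07e-31 (quasi-likelihood test of edgeR, Benjamini-Hochberg adjustment over all tested genes). In the MEP50 knockdown it was -1.07 ± 0.0478 (edgeR adjusted p = 6.47e-22). Falls of at least 2-fold were called for 3.73% of all tested genes in PRMT5 knockdown cells and 3.77% in MEP50 knockdown cells. PLA2G4A was also 1.98-fold lower in the PRMT5 knockdown than in the MEP50 knockdown, a log2 difference of -0.98 ± 0.0535 (edgeR adjusted p = 1.88e-18).

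PTGS2 (ENSG00000073756), the inducible cyclooxygenase, had 356, 364 and 417 reads in PRMT5 knockdown libraries 1, 2 and 3, 926, 1223 and 1485 reads in the MEP50 knockdown libraries, and 10251, 12234 and 11487 reads in the control libraries. On the scaled level these were 14.0, 11.7 and 13.2 CPM in the PRMT5 knockdown, 44.8, 57.2 and 52.3 CPM in the MEP50 knockdown, and 409, 412 and 416 CPM in the control. The groups were far apart, with means of 13.0 ± 1.16 CPM in the PRMT5 knockdown and 51.4 ± 6.26 CPM in the MEP50 knockdown, against 412.5 ± 3.49 CPM in the control (SD, n = 3). The log2 difference from the control was -5.00 ± 0.0706 (SE) in PRMT5 knockdown cells and -3.00 ± 0.0601 in MEP50 knockdown cells, values for which PTGS2 was chosen. By mean CPM it ranked 8793rd of the 14582 tested genes in the PRMT5 knockdown and 4557th in the MEP50 knockdown, against 333rd in the control. Its log2 fold change was the 10th lowest of all tested genes in the PRMT5 knockdown and the 52nd lowest in the MEP50 knockdown. The difference between the knockdowns was not used to choose it: PTGS2 was 3.98-fold lower in the PRMT5 knockdown than in the MEP50 knockdown (log2 difference -1.99 ± 0.0805, edgeR adjusted p = 1.17e-11).

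PTGS1 (ENSG00000095303), the constitutive cyclooxygenase, was close to absent. It had 4, 4 and 4 reads in the PRMT5 knockdown libraries, 5, 4 and 12 reads in the MEP50 knockdown libraries and 4, 7 and 3 reads in the control libraries, too few to enter the test. The ratio of its summed reads per total was 0.802 (95% interval 0.339 to 1.87) for the PRMT5 knockdown over the control and 1.75 (0.850 to 3.73) for the MEP50 knockdown over the control, intervals that cover counting error only. The low level of PTGS2 in the knockdowns was thus not accompanied by a detectable rise of PTGS1 at this depth. Per kilobase of exon, PTGS2 made up 99.0 ± 0.0791% of the cyclooxygenase reads in PRMT5 knockdown cells and 99.5 ± 0.217% in MEP50 knockdown cells, against 99.96 ± 0.0142% in the control (SD, n = 3).

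**Figure D1:**
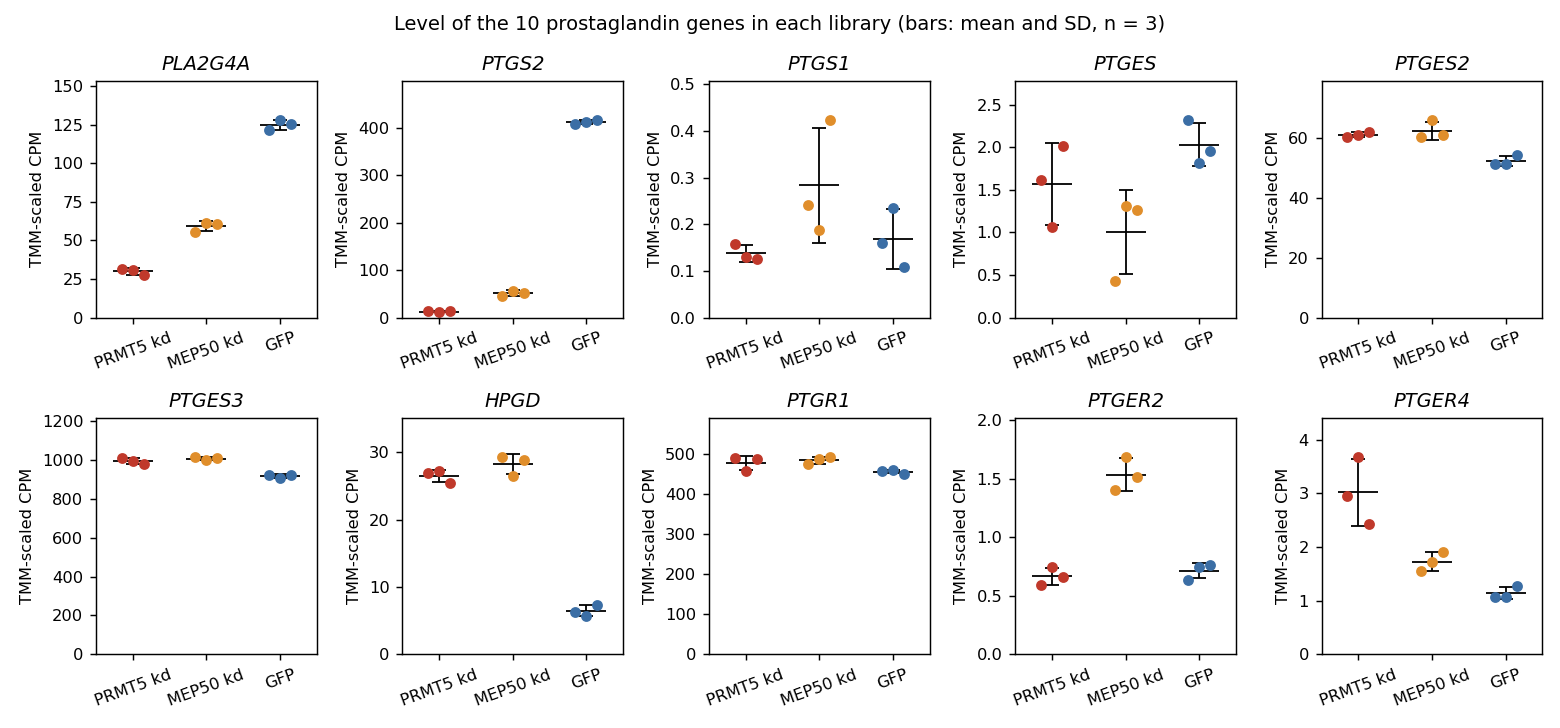
TMM-scaled CPM of the 10 genes in each of the 9 libraries, with PRMT5 knockdown, MEP50 knockdown and GFP control from left to right. Each point is 1 library, bars give mean and SD (n = 3), and each panel has its own axis from 0. PTGS2 and PLA2G4A are lowest in the PRMT5 knockdown, between the others in the MEP50 knockdown and highest in the control, while HPGD is at 25.5 CPM or more in all 6 knockdown libraries and at most 7.35 CPM in the control.

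Of the prostaglandin E synthases, the inducible membrane enzyme PTGES (ENSG00000148344), which is often coupled to PTGS2, was the weakest. It was at 1.62, 1.06 and 2.02 CPM in PRMT5 knockdown libraries, 0.435, 1.31 and 1.27 CPM in MEP50 knockdown libraries, and 2.31, 1.82 and 1.96 CPM in the control libraries, from 9 to 64 reads per library. The MEP50 knockdown libraries lay below all control libraries, and the PRMT5 knockdown libraries overlapped the control. PTGES was lower in MEP50 knockdown cells by a log2 fold change of -0.98 ± 0.307 (edgeR adjusted p = 0.00700), which was not called without MEP50 knockdown replicate 1 (-0.65, adjusted p = 0.0725). In the PRMT5 knockdown it did not pass the test (-0.37, 95% interval -0.92 to 0.18, edgeR adjusted p = 0.287).

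PTGES2 (ENSG00000148334), a constitutive membrane-associated synthase, was at 60.5, 61.0 and 62.1 CPM in PRMT5 knockdown libraries, 60.5, 66.0 and 61.3 CPM in MEP50 knockdown libraries, and 51.5, 51.5 and 54.5 CPM in the control libraries. All 6 knockdown libraries were above the control, with log2 fold changes of 0.22 ± 0.0481 (edgeR adjusted p = 0.000172) in the PRMT5 knockdown and 0.25 ± 0.0490 (edgeR adjusted p = 3.32e-05) in the MEP50 knockdown. PTGES3 (ENSG00000110958), known both as the cytosolic synthase and as the HSP90 co-chaperone p23, was the most abundant member. It averaged 995 ± 16.5 CPM in the PRMT5 knockdown and 1006 ± 8.62 CPM in the MEP50 knockdown, against 918 ± 9.38 CPM in the control, and the knockdown libraries were again all above the control. Its log2 fold changes of 0.12 ± 0.0246 and 0.13 ± 0.0246 passed the test (edgeR adjusted p = 0.000125 and 1.76e-05). Pseudogenes of PTGES3 took 1522 reads over the 9 libraries against 233914 reads on the gene itself.

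HPGD (ENSG00000164120), the enzyme that starts prostaglandin inactivation, was at 26.9, 27.2 and 25.5 CPM in PRMT5 knockdown libraries, 29.3, 26.6 and 28.8 CPM in MEP50 knockdown libraries, and 6.23, 5.77 and 7.35 CPM in the control libraries. The knockdowns overlapped each other and stood well above the control. HPGD rose by 2.04 ± 0.0894 on the log2 scale in the PRMT5 knockdown (edgeR adjusted p = 3.71e-22) and by 2.13 ± 0.0903 in the MEP50 knockdown (edgeR adjusted p = 1.23e-22). Rises of at least 2-fold were called for 3.52% and 3.74% of all tested genes. Between the knockdowns the log2 difference was -0.09, with a 95% interval of -0.24 to 0.06 (edgeR adjusted p = 0.353), so a gap between them like that of PTGS2 lies outside the interval.

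PTGR1 (ENSG00000106853), the reductase that acts after HPGD and also handles leukotriene B4, was at 489, 457 and 487 CPM in PRMT5 knockdown libraries, 475, 487 and 492 CPM in MEP50 knockdown libraries, and 458, 459 and 451 CPM in the control libraries. It rose by 0.09 ± 0.0283 on the log2 scale in the MEP50 knockdown (edgeR adjusted p = 0.00876), a call lost without MEP50 knockdown replicate 3 (0.07, adjusted p = 0.0823) and with no low-count filter (adjusted p = 0.0701). In the PRMT5 knockdown the libraries overlapped the control. The log2 fold change of 0.07 ± 0.0281 there was narrowly called (edgeR adjusted p = 0.0453) and was lost in 15 of 17 alternative settings, with adjusted p up to 0.357.

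The ratio of PTGS2 to HPGD, both per kilobase of exon, puts the step that makes prostaglandin H2 beside the step that removes prostaglandins. It was 0.549, 0.454 and 0.542 in the PRMT5 knockdown libraries, 1.60, 2.26 and 1.90 in the MEP50 knockdown libraries, and 69.0, 75.1 and 59.4 in the control libraries. HPGD transcripts thus exceeded PTGS2 transcripts in all 3 PRMT5 knockdown libraries and in no other library. The means were 0.515 ± 0.0531 in PRMT5 knockdown cells and 1.92 ± 0.328 in MEP50 knockdown cells, against 67.8 ± 7.91 in the control (SD, n = 3), and since PTGS2 was chosen for its fall, no test is given.

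**Figure D2:**
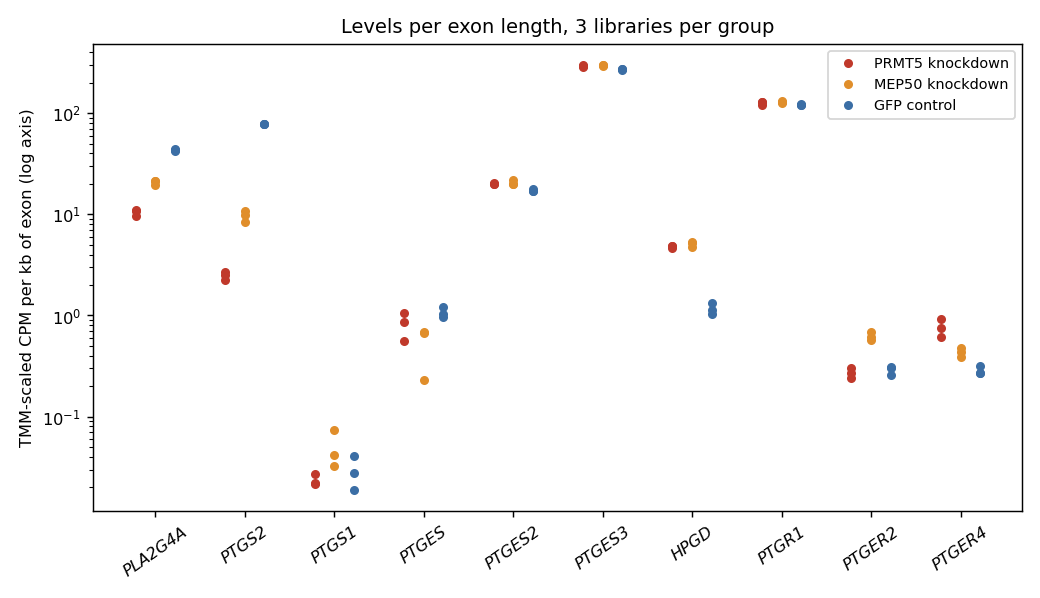
TMM-scaled CPM per kilobase of exon on a log axis, for the 10 genes with each of the 3 libraries per group as a point. PTGS2 has the rank 6 among the members in the PRMT5 knockdown, at 2.46 CPM per kilobase and below HPGD, against rank 3 in the control at 78.3.

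Per kilobase of exon the control levels ran from PTGES3 (270 CPM per kilobase) over PTGR1 (121), PTGS2 (78.3), PLA2G4A (43.4) and PTGES2 (17.3) to HPGD (1.17), PTGES (1.07), PTGER2 (0.289), PTGER4 (0.288) and PTGS1 (0.0290). HPGD and PTGES did not differ beyond their spread there, nor did PTGER2 and PTGER4. In the MEP50 knockdown PTGS2 had rank 5 at 9.76 CPM per kilobase, below PLA2G4A (20.6) and PTGES2 (20.6), which did not differ beyond their spread. In the PRMT5 knockdown PTGS2 had rank 6 at 2.46 CPM per kilobase, below PTGES2 (20.1), PLA2G4A (10.5) and HPGD (4.79). Levels of PTGER2 and PTGES in the MEP50 knockdown, and of PTGES and PTGER4 in the PRMT5 knockdown, did not differ beyond their spread. PTGES3 and PTGR1 had the highest levels in both knockdowns.

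The receptor genes were expressed at a few CPM or less. PTGER2 (ENSG00000125384), which encodes the EP2 receptor that raises cyclic AMP, had 15, 23 and 21 reads in the PRMT5 knockdown libraries, 29, 36 and 43 reads in the MEP50 knockdown libraries, and 16, 22 and 21 reads in the control libraries. On the scaled level this was 0.592, 0.742 and 0.663 CPM, 1.40, 1.68 and 1.51 CPM, and 0.639, 0.742 and 0.761 CPM in the same order of groups. It rose in the MEP50 knockdown by 1.09 ± 0.318 on the log2 scale (edgeR adjusted p = 0.00379). In the PRMT5 knockdown it did not pass the test (-0.10, 95% interval -0.77 to 0.58, edgeR adjusted p = 0.838). The knockdowns themselves differed, with PTGER2 lower in the PRMT5 knockdown than in the MEP50 knockdown by a log2 difference of -1.19 ± 0.318 (edgeR adjusted p = 0.00250).

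PTGER4 (ENSG00000171522), which encodes EP4, the other receptor that raises cyclic AMP, had 75, 114 and 77 reads in the PRMT5 knockdown libraries, 32, 37 and 54 reads in the MEP50 knockdown libraries, and 27, 32 and 35 reads in the control libraries. In CPM the libraries held 2.96, 3.68 and 2.43 in the PRMT5 knockdown, 1.55, 1.73 and 1.90 in MEP50 knockdown cells, and 1.08, 1.08 and 1.27 in the control. The 3 groups did not overlap. PTGER4 rose in the PRMT5 knockdown by 1.40 ± 0.238 on the log2 scale (edgeR adjusted p = 4.10e-06). The log2 fold change in the MEP50 knockdown was 0.60 ± 0.260 (edgeR adjusted p = 0.0494), and this call failed in 14 of 17 alternative settings with adjusted p up to 0.161. PTGER4 was higher in the PRMT5 knockdown than in the MEP50 knockdown (log2 difference 0.80 ± 0.229, edgeR adjusted p = 0.00484), a call lost without PRMT5 knockdown replicate 2 (0.63, adjusted p = 0.0605).

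Leaving out PTGS2, 8 of the other 9 members could be tested. In the PRMT5 knockdown 5 were higher than in the control, 1 was lower and 2 did not pass, where 51% of all tested genes were called, 26.1% higher and 24.9% lower. In the MEP50 knockdown 6 were higher and 2 lower, where 51.7% of all genes were called, 26.5% higher and 25.2% lower. The median log2 fold change of these members was 0.09 in PRMT5 knockdown cells and 0.19 in MEP50 knockdown cells, against 0.00323 and -0.00188 over all tested genes. The libraries of knockdown and control did not overlap for 5 of the 9 members in the PRMT5 knockdown, against 57.2% of all tested genes, and for 8 of 9 in the MEP50 knockdown, against 56.9%. The 9 members include PTGS1, which was not tested and overlapped the control in both knockdowns. Both comparisons share the 3 control libraries. Among the calls, that of PTGR1 in the PRMT5 knockdown was lost in 15 of 17 alternative settings. In the MEP50 knockdown the call of PTGER4 was lost in 14 of 17, that of PTGR1 in 2 and that of PTGES in 1.

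Between the knockdowns, 1 of the 8 members was higher in the PRMT5 knockdown (PTGER4), 2 were lower (PLA2G4A and PTGER2) and 5 did not pass, where 39.7% of all tested genes were called, 19.2% higher and 20.5% lower. Libraries did not overlap for 4 of the 9 members, against 47.2% of all tested genes. The 4 include PTGS1, which was not tested. It had 4 reads in each PRMT5 knockdown library and 5, 4 and 12 in the MEP50 knockdown libraries, so its separation rests on library size. Differences of at least 2-fold were called for 1.54% of all tested genes upward and 1.65% downward. The log2 differences of PTGES2 (-0.03), PTGES3 (-0.02) and PTGR1 (-0.02) had 95% intervals of -0.12 to 0.06, -0.06 to 0.03 and -0.08 to 0.03. For PTGES the difference was 0.61 ± 0.314 (edgeR adjusted p = 0.123), and it passed the test without PRMT5 knockdown replicate 2 (0.83, adjusted p = 0.0469). The summed reads of PTGS1 gave a ratio of 0.457 for the PRMT5 knockdown over the MEP50 knockdown (95% counting interval 0.205 to 0.973), with 12 of the MEP50 knockdown reads in 1 library.

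**Figure D3:**
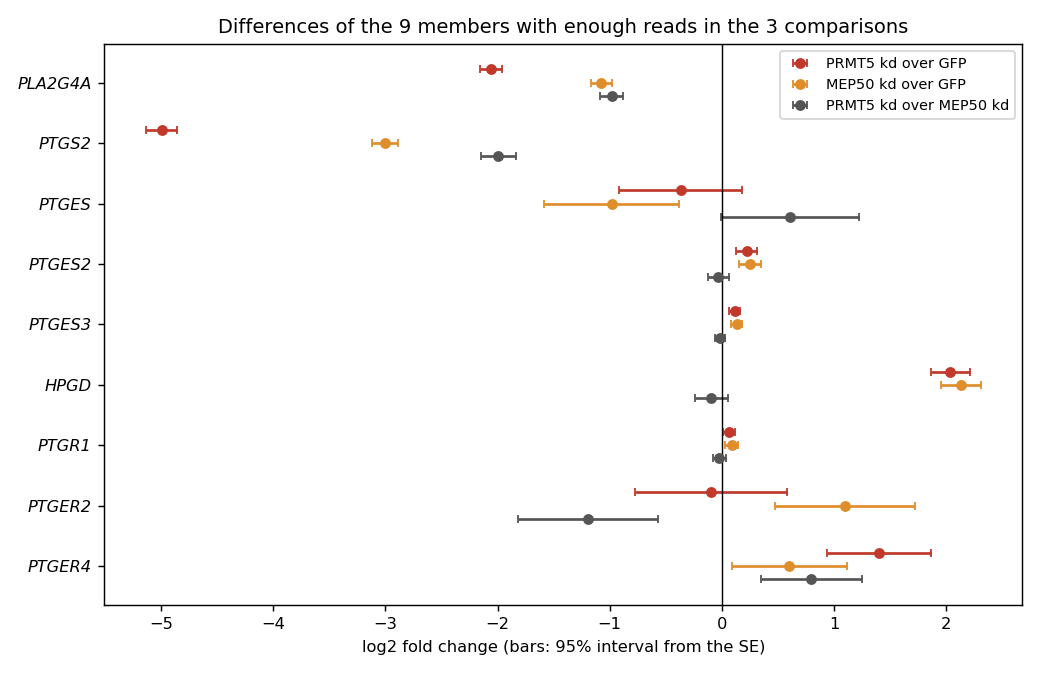
Log2 fold changes of the 9 members with enough reads, with 95% intervals from the SE, for PRMT5 knockdown over control, MEP50 knockdown over control and PRMT5 knockdown over MEP50 knockdown. PTGS2 and PLA2G4A lie left of 0 in all 3 comparisons, and HPGD lies near 2 against the control and near 0 between the knockdowns.

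In the authors' deposited table for the PRMT5 knockdown, 6 of the 10 members were listed among 6808 genes, without PTGS1, PTGES, PTGER2 and PTGR1. In the authors' deposited table for the MEP50 knockdown, 8 members were listed among 6833 genes, without PTGS1 and PTGER4. PTGS2 stood at a DESeq2 log2 fold change of -4.95 and an edgeR value of -5.00 in the authors' deposited table for the PRMT5 knockdown. It stood at -2.91 and -3.00 in the authors' deposited table for the MEP50 knockdown. For PTGER4 the authors' deposited table for the PRMT5 knockdown gave 1.11 by DESeq2 and 1.40 by edgeR, the widest gap between the tools among the members it lists.

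Around these members, 9 lists of other pathway genes held 150 names, of which 149 were matched and 118 could be tested. In the PRMT5 knockdown 46 were higher and 36 lower (69.5% called, against 51% of all tested genes), with a median log2 fold change of 0.04. In the MEP50 knockdown 41 were higher and 41 lower (69.5%, against 51.7%), with a median of 0.01. Between the knockdowns 28 were higher in the PRMT5 knockdown and 35 lower (53.4%, against 39.7%). The lists were drawn up with earlier results of these data known, and these shares were not matched for expression level. The examples given are those with the widest log2 fold changes among the genes called in both knockdowns, unless said to be chosen after their values were seen.

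Among 15 tested genes of arachidonate release and reacylation, 4 rose and 7 fell in the PRMT5 knockdown, and 3 rose and 5 fell in the MEP50 knockdown, with medians of -0.19 and -0.10. MGLL, the monoacylglycerol lipase that can free arachidonate from 2-arachidonoylglycerol, fell to 25.9 ± 1.50 CPM in the PRMT5 knockdown and 85.9 ± 3.41 CPM in the MEP50 knockdown, against 103.5 ± 0.762 CPM in the control. Its log2 fold changes were -2.00 (edgeR adjusted p = 6.51e-31) and -0.27 (edgeR adjusted p = 1.81e-06), and it was lower in the PRMT5 knockdown than in the MEP50 knockdown by a log2 difference of -1.74. ANXA1, annexin A1, which is known to restrain cytosolic phospholipase A2, fell to 896 CPM in the PRMT5 knockdown and 959 CPM in the MEP50 knockdown, against 1642 CPM in the control, and the secreted-type phospholipase PLA2G12A fell by 0.83 and 0.73 on the log2 scale. ACSL4, the acyl-CoA synthetase that prefers arachidonate and was chosen after its values were seen, fell by 0.87 and 0.24.

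Of 5 tested other prostanoid synthases, 2 rose and 1 fell in the PRMT5 knockdown, and 1 rose and 1 fell in the MEP50 knockdown. AKR1C3, an aldo-keto reductase with prostaglandin F synthase activity, fell by 1.14 and 0.90 on the log2 scale (edgeR adjusted p = 1.59e-31 and 4.82e-28), to 610 CPM in the PRMT5 knockdown and 721 CPM in the MEP50 knockdown, against 1349 CPM in the control. AKR1B1, another aldo-keto reductase with such an activity, rose by 0.64 and 0.70 (edgeR adjusted p = 2.31e-22 and 1.11e-23). The prostacyclin synthase PTGIS and the prostaglandin D synthase PTGDS had 0 reads in all 9 libraries. Of 4 tested transport and inactivation genes, CYP4F3, an omega-hydroxylase, fell by 1.07 and 0.80, and the reductases PTGR2 and CBR3 rose by 0.60 and 0.66 and by 0.43 and 0.48. The prostaglandin uptake carrier SLCO2A1 had 0 reads.

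Of the other prostanoid receptor genes 3 of 8 could be tested and 3 had no read. PTGFRN, a regulator of the prostaglandin F receptor, rose by 0.33 and 0.58 on the log2 scale (edgeR adjusted p = 4.79e-08 and 1.58e-14), although the gene of that receptor, PTGFR, had 0 reads. Among 8 tested lipoxygenase and leukotriene genes, 2 rose and 3 fell in the PRMT5 knockdown, and 3 rose and 4 fell in the MEP50 knockdown. MGST2, a microsomal glutathione transferase with leukotriene C4 synthase activity, fell by 0.96 and 0.81 (edgeR adjusted p = 9.83e-12 and 1.11e-09). ALOX5AP, which presents arachidonate to 5-lipoxygenase, had 20, 16 and 6 reads in the PRMT5 knockdown libraries, 18, 18 and 17 reads in the MEP50 knockdown libraries and 2, 2 and 0 reads in the control libraries. Its count ratio to the control was 9.82 (95% counting interval 3.56 to 37.7) in the PRMT5 knockdown and 15.5 (5.70 to 58.9) in the MEP50 knockdown, while ALOX5 itself had 6 reads in all 9 libraries. ALOXE3, an epidermis-type lipoxygenase, was called higher by 1.44 and 1.45, at under 1 CPM in each group, and each call was lost in 2 alternative settings that left out 1 library (adjusted p up to 0.156).

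**Figure D4:**
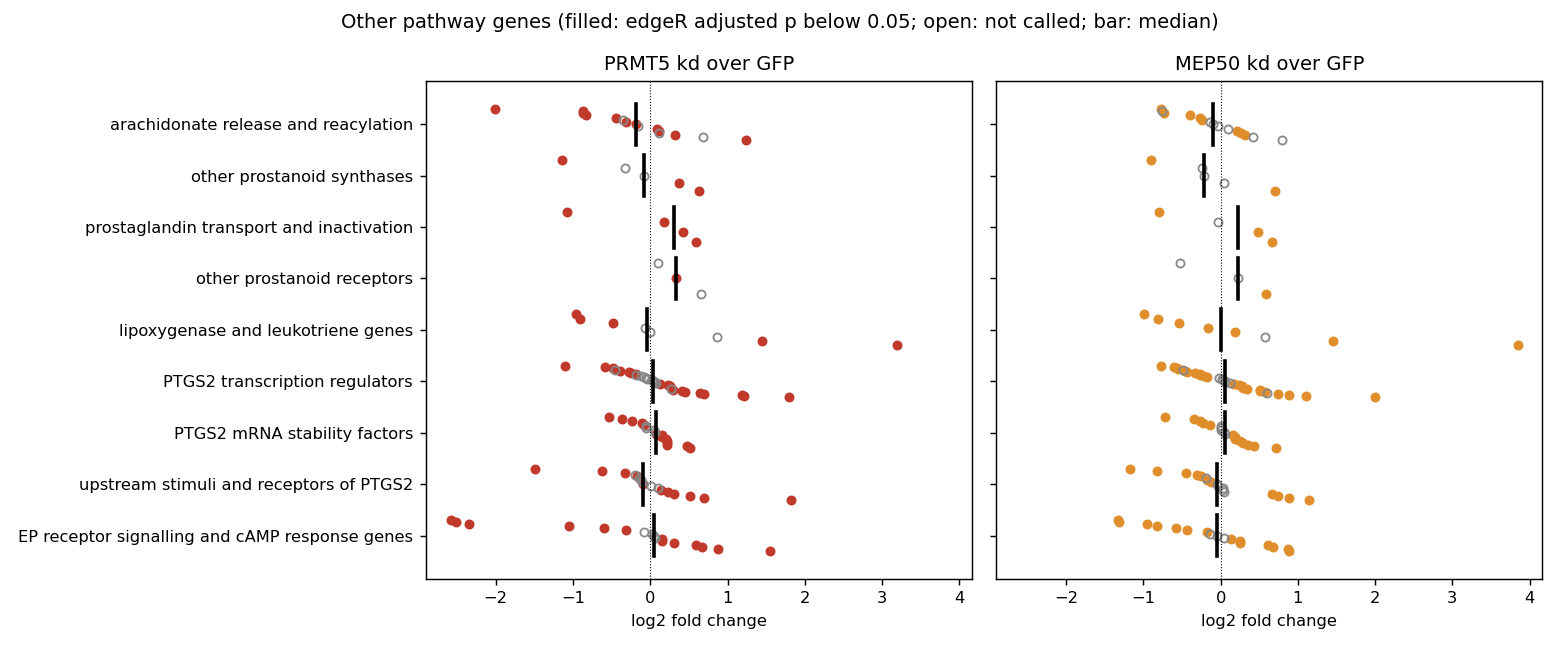
Log2 fold changes of the tested genes in the 9 lists, PRMT5 knockdown over control on the left and MEP50 knockdown over control on the right. Filled points passed edgeR's test at an adjusted p below 0.05, open points did not, and the black bar is the median of the list. Every list median lies within about 0.33 of 0, with the 3 NR4A genes at the far left of the lowest row.

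The 31 tested regulators of PTGS2 transcription were split, with 12 higher and 8 lower in the PRMT5 knockdown, 12 higher and 11 lower in the MEP50 knockdown, and medians of 0.03 and 0.06. NFATC2 rose by 1.80 and 2.00, the AP-1 subunit FOSL2 by 1.21 and 1.11, and JUN by 1.19 and 0.75 on the log2 scale (edgeR adjusted p at most 2.69e-10 for JUN in either knockdown). FOS, another AP-1 subunit, chosen after its values were seen, fell by 1.10 and 0.55 (edgeR adjusted p = 7.27e-18 and 1.84e-09). Of the factors known to bind the patterns marked in the PTGS2 promoter, also chosen after their values were seen, CEBPB had log2 fold changes of -0.46 and -0.49 that did not pass (edgeR adjusted p = 0.122 and 0.107). CEBPD rose by 0.44 and 0.50 (edgeR adjusted p = 0.0141 and 0.00718). CREB1 rose by 0.26 in the PRMT5 knockdown (edgeR adjusted p = 0.000180) and stood at 0.12 in the MEP50 knockdown (edgeR adjusted p = 0.0730). Other such factors of the list went the other way in the PRMT5 knockdown. ATF1 and ATF2 had log2 fold changes of -0.27 and -0.39 there (edgeR adjusted p = 0.000660 and 1.84e-09). ATF3 did not pass (-0.18, edgeR adjusted p = 0.108). Values of these ATF genes in the MEP50 knockdown are not given here.

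Of 18 tested factors of PTGS2 mRNA stability, 9 rose and 5 fell in the PRMT5 knockdown, and 8 rose and 5 fell in the MEP50 knockdown. The decay factor ZFP36L1 rose by 0.47 and 0.71 and the decay factor CELF1 by 0.51 and 0.44 on the log2 scale. The kinase MAPKAPK2, known to stabilise PTGS2 mRNA downstream of p38, fell by 0.53 and 0.26. Other factors, chosen after their values were seen, went the other way in the PRMT5 knockdown. The decay factors ZFP36 and ZFP36L2 fell there by 0.23 and 0.11 (edgeR adjusted p = 0.00629 and 0.0427). The stabilising factor ELAVL1 rose there by 0.16 (edgeR adjusted p = 0.000211). Values of these other factors in the MEP50 knockdown are not given here. Of 17 tested upstream stimuli and receptors, 6 rose and 5 fell in the PRMT5 knockdown, and 4 rose and 7 fell in the MEP50 knockdown. The EGF receptor ligand TGFA rose by 1.83 and 1.14, the ligand HBEGF fell by 0.33 and 1.18, and the interleukin-1 receptor IL1R1 rose by 0.51 and 0.88. The call for HBEGF in the PRMT5 knockdown was lost in 1 of 17 alternative settings (-0.28, adjusted p = 0.0653). The cytokine genes IL1A and TNF had 0 reads, and IL1B and IL6 had 1 read each in all 9 libraries.

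Among 17 tested genes of EP receptor signalling and the cyclic AMP response, 7 rose and 6 fell in the PRMT5 knockdown, and 7 rose and 7 fell in the MEP50 knockdown. All 3 genes of the NR4A nuclear receptors, which are early targets of cyclic AMP signalling, fell in both. NR4A1 was at 20.7, 20.8 and 18.2 CPM in PRMT5 knockdown libraries, 47.1, 45.3 and 44.7 CPM in MEP50 knockdown libraries and 114, 113 and 115 CPM in the control libraries, so the 3 groups did not overlap. Its log2 fold changes were -2.52 and -1.32 (edgeR adjusted p = 5.45e-33 and 1.31e-24). NR4A2 fell by 2.58 and 0.96 and NR4A3 by 2.34 and 1.33. All 3 were lower in the PRMT5 knockdown than in the MEP50 knockdown, with log2 differences of -1.20 for NR4A1, -1.63 for NR4A2 and -1.02 for NR4A3 (edgeR adjusted p at most 1.69e-08, for NR4A3). RGS2, a regulator of G protein signalling that cyclic AMP can also induce and that was chosen after its values were seen, went the other way, with rises of 1.55 and 0.89.

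PTGS2 and PLA2G4A lie close together in the genome, and the annotated gene between them was not analysed here. Within 12 annotated positions on each side of PTGS2 the count table held 17 other genes, of which 8 had no read and 3 could be tested, PLA2G4A, ODR4 and TPR. ODR4 was at 49.7 CPM in the PRMT5 knockdown, 50.4 CPM in the MEP50 knockdown and 56.0 CPM in the control, with log2 fold changes of -0.17 (edgeR adjusted p = 0.00515) and -0.15 (edgeR adjusted p = 0.0142). TPR, the nuclear pore protein gene, had log2 fold changes of 0.01 (edgeR adjusted p = 0.832) and -0.14 (edgeR adjusted p = 0.000346). The falls of PTGS2 and PLA2G4A were thus not shared at that size by ODR4 and TPR. Both of these lie on the side of PTGS2 away from PLA2G4A. On the side of PLA2G4A no other gene in these positions could be tested.

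The genes whose levels ran most like PTGS2 over the 9 libraries were found by the root mean square difference of log2 CPM, after each gene was centred on its own mean, among the 12679 tested genes that averaged 1 CPM or more. The nearest 6 were the calcium-binding S100P (0.42), the copper carrier ceruloplasmin CP (0.53), the small heat shock protein gene CRYAB (0.57), CDHR17P (0.57), the tetraspan membrane protein gene TM4SF4 (0.59) and the receptor gene KLRC2 (0.60). S100P was at 2.37 ± 0.416 CPM in the PRMT5 knockdown, 6.71 ± 0.775 CPM in the MEP50 knockdown and 41.0 ± 3.06 CPM in the control, and CP at 6.59 ± 0.993 CPM, 12.6 ± 0.816 CPM and 232 ± 6.99 CPM. TM4SF4 was at 1.66 ± 0.308 CPM, 7.65 ± 0.562 CPM and 25.4 ± 1.36 CPM in the same order of groups (SD, n = 3). CRYAB, CDHR17P and KLRC2 averaged 1 CPM or more only through the control, at 6.03, 4.14 and 5.01 CPM. In the PRMT5 knockdown libraries CRYAB had 7, 5 and 15 reads, CDHR17P 5, 8 and 6, and KLRC2 0, 3 and 2. Their likeness to PTGS2 within the knockdowns therefore rests on few reads. Of the members PLA2G4A came closest, at place 98 of the tested genes with a difference of 1.22, and HPGD stood at place 14498. Without PRMT5 knockdown replicate 2, 5 of the nearest 8 genes were still among the nearest 8.

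**Figure D5:**
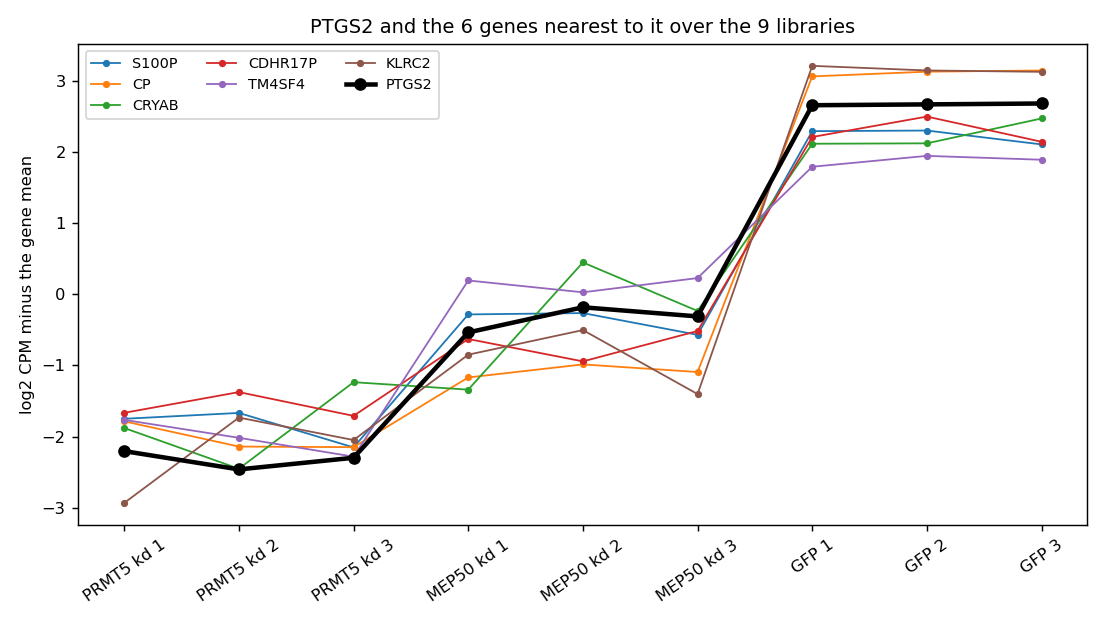
Log2 CPM minus the mean of the gene over the 9 libraries, for PTGS2 (black) and the 6 genes nearest to it, with PRMT5 knockdown, MEP50 knockdown and GFP control libraries from left to right. PTGS2 lies above its mean in the 3 control libraries and below it in all 6 knockdown libraries, lowest in the PRMT5 knockdown.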

How the data were processed

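RNA from A549 cells was sequenced after ribosomal RNA depletion with a stranded protocol, per the labels' protocols. The authors' deposited table gave raw counts for each Ensembl gene in 9 libraries. Per the submitters' processing notes, the tools were Trim Galore, STAR, HTSeq, DESeq2 and edgeR and the build hg19; versions and the strand setting of the counting are not given in the sources used here. The authors' 2 deposited comparison tables held, per the file headers, log2 fold changes of DESeq2 and edgeR and their adjusted p-values. The 5 HTSeq summary lines were dropped before library sizes were summed. Reads that HTSeq assigned to no feature were 11.9 to 14.5% of all reads, summary lines included. Their share was 13.7 to 14.5% in the PRMT5 knockdown, 12.3 to 13.8% in the MEP50 knockdown and 11.9 to 12.4% in the control.

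From the counts, edgeR 4.0.16 in R 4.3.3 fitted 1 model with a term for group to the 9 libraries (TMM scaling, filterByExpr, robust quasi-likelihood fit), with Benjamini-Hochberg adjustment over 14582 genes at 0.05. Levels are TMM-scaled CPM. The SE is the size of the log2 fold change divided by √F of its test. The scripts were checked on simulated data. Replicates differed by 3.30 to 4.61 times the variance of counting alone (chi-square per degree of freedom), so no library was counted as a repeat of another. Exon lengths are unions of exons in GENCODE 29, built on GRCh38 while counts were made on hg19; in it no member shares exon bases with another gene.

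The members and lists were chosen with earlier results of these data known. Named genes were the members, up to 3 genes per list with the largest absolute log2 fold change among those called in both knockdowns, list genes with no read, the 8 genes most like PTGS2, and the targets; some genes named by this rule are not reported here. ZADH2, MRC1 and PECAM1 were not matched and, like the antisense RNA next to PTGS2, were not analysed here. Other settings tried were scaling by RLE, upper quartile or library total, DESeq2 1.42.0 as the tool, and a replicate block. Further ones were every gene with a read or those at 1 CPM in at least 3 libraries, only the 6 libraries of a comparison, and each library left out in turn. Other exon lengths were tried for the PTGS2 share of cyclooxygenase reads only, and not for the ratio of PTGS2 to HPGD.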

Additional observations from a re-analysis of the deposited data

How the results depend on the processing

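Of 459 alternative values for the members' log2 fold changes, 422 kept direction and call, 33 lost the call, 1 gained it and 3 changed sign. For PTGS2 against the control no call was weighed. Its values there counted as kept if they held their sign and moved by less than the spread of PTGS2 within groups. For the named list genes 1189 of 1216 kept both direction and call, and of 918 counts over the lists 48 moved by over 1.5 times. All changes of sign were small and uncalled differences between the knockdowns: PTGES3 0.00507 and PTGR1 0.000446 with library-total scaling, PTGR1 0.0106 without PRMT5 knockdown replicate 2, ALOXE3 0.00875 with library-total scaling, 0.0123 with the replicate block, 0.231 without PRMT5 knockdown replicate 2 and 0.391 without MEP50 knockdown replicate 2, and CBR3 0.0340 without MEP50 knockdown replicate 3. PLA2G4A, PTGES2, PTGES3 and HPGD kept their calls against the control in every setting. The cause of lost calls was not tested.

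With each library left out in turn, these differences between the knockdowns ran from -0.0464 to 0.0106 for PTGR1, -0.150 to 0.0340 for CBR3 and -0.336 to 0.391 for ALOXE3. Members called higher numbered 4 to 5 in the PRMT5 knockdown, 4 to 6 in the MEP50 knockdown and 1 to 1 between the knockdowns; members called lower numbered 1 to 1, 1 to 2 and 2 to 2, the 1 in the MEP50 knockdown being without its replicate 1, where PTGES was lost. Genes called higher numbered 3354 to 3792, 3453 to 3948 and 2256 to 2768, and lower 3323 to 3844, 3342 to 3766 and 2569 to 3077, in the same order of comparisons. With 1 library left out, the group mean of the PTGS2 share of cyclooxygenase reads was 99.0 to 99.1% in the PRMT5 knockdown. It was 99.4 to 99.6% in the MEP50 knockdown and 99.96 to 99.97% in the control. Single libraries of the MEP50 knockdown ran from 99.27 to 99.70%. Without division by length the group mean in the PRMT5 knockdown was 98.95%.

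Replicate numbers did not pair the libraries: deviations from the group means correlated at -0.0406 to 0.0412 for the 9 pairs with the same number and at -0.0692 to 0.0541 for the 18 others. With the replicate block, 3804 genes were called higher and 3619 lower in the PRMT5 knockdown, 3874 and 3675 in MEP50 knockdown cells, and 2775 and 2984 between the knockdowns; members called higher numbered 4, 5 and 1, and lower 1, 2 and 2. PTGR1 in the PRMT5 knockdown (0.07, edgeR adjusted p = 0.0534) and PTGER4 in the MEP50 knockdown (0.61, edgeR adjusted p = 0.0527) lost their calls. Depth limits PTGS1, PTGES, PTGER2, PTGER4, ALOX5AP and ALOXE3, where single libraries held few reads.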
